A study of Mus musculus with 2 samples.

Results

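The genes described here encode 10 subunits of heterotrimeric G proteins in mouse brain: the alpha subunits Gnao1, Gnai1, Gnai2, Gnaq and Gnaz, the beta subunits Gnb1, Gnb2 and Gnb5, and the gamma subunits Gng3 and Gng7. They were chosen by name from 18366 annotated mouse genes with a read in at least 1 of the libraries, and each of the 10 had reads in both. The tissue was left cerebral cortex of 14-day-old male mice of the B6CASTF1/J cross, with no treatment in the labels and no second genotype or age. Long reads, which can span a whole message, were sequenced from 2 µg of total RNA in each of 2 libraries of that 1 group, replicate 2 and replicate 1. Both carry the same donor identifier and their descriptions mention several males, so each may be a pool, and nothing beyond the replicate numbers says that they came from separate animals.

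A heterotrimeric G protein couples a receptor in the cell membrane to enzymes and ion channels inside the cell. The receptor makes the alpha subunit exchange GDP for GTP, upon which alpha and the beta-gamma dimer act on separate targets until alpha hydrolyses its GTP. In neurons the Go and Gi classes lower cyclic AMP, open inwardly rectifying potassium channels and restrain presynaptic calcium channels, while the Gq class activates phospholipase C beta.

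Replicate 2 had 924222 mouse reads in 130406 transcript models and replicate 1 had 775048 mouse reads in 116776 models. A level is given in CPM, the reads of all models assigned to a gene per 1000000 mouse reads. Each read was counted once whatever its length, so CPM was not divided by transcript length. Without molecular identifiers, copies of 1 cDNA cannot be told apart from separate molecules. Differences between the libraries are log2 ratios of replicate 2 over replicate 1, tested per gene with a two-sided Fisher's exact test and Benjamini-Hochberg adjustment over the 11203 genes with at least 10 reads. Such a test sets the difference between 2 libraries of 1 group against counting error, not against the spread between animals. Of the 4 excitatory neuron markers, Nrgn, a neuronal calmodulin-binding protein, was at 3525 CPM in replicate 2 and 1942 CPM in replicate 1 and was the only one called. The cortical vesicular glutamate transporter Slc17a7 was at 1316 CPM in replicate 2 and 1368 CPM in replicate 1. The libraries also differed in markers of other regions and cells. The 4 oligodendrocyte markers summed to 2058 CPM in replicate 2 and 3137 CPM in replicate 1, and the 8 markers of the neighbouring striatum to 385 CPM in replicate 2 and 1201 CPM in replicate 1. The difference ran the other way for the 3 choroid plexus markers, which summed to 256 CPM in replicate 2 and 38.7 CPM in replicate 1. Nearly all of that sum was Ttr, with 228 of 237 reads in replicate 2 and 28 of 30 in replicate 1. Kl and Clic6 had too few reads to be tested. The sum of the 4 red blood cell markers was also higher in replicate 2, at 532 CPM against 276 CPM in replicate 1. Of these 4, Hbb-bt hardly differed, at 22.7 CPM in replicate 2 and 21.9 CPM in replicate 1. The part of these regions and cells in the differences between the libraries was not tested. In bulk tissue, fewer cells of a type and less RNA per cell cannot be told apart.

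The A and B messages of Gnao1 share coding exons 1 to 6 and differ in the coding part that follows. The coding bases of both versions are shown because reads were assigned to A or B by the exons that hold them. Capitals mark the bases that differ between A and B, and all are given 5′ to 3′ on the plus strand of mm10 from the GENCODE M21 transcripts. Exon 7A lies at chr8:93963384-93963537 and exon 7B at chr8:93953975-93954128. The coding part of exon 8A lies at chr8:93966868-93967055 and that of exon 8B at chr8:93956065-93956252, each with its stop codon.
Gnao1 exon 7A: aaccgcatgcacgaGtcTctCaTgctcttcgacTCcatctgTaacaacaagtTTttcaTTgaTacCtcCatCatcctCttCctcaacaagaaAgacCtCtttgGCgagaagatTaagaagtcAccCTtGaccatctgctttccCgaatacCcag
Gnao1 exon 7B: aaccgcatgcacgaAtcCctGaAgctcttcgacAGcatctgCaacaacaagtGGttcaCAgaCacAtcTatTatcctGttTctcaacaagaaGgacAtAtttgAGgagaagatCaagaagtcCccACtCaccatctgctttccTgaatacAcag
Gnao1 exon 8A, coding: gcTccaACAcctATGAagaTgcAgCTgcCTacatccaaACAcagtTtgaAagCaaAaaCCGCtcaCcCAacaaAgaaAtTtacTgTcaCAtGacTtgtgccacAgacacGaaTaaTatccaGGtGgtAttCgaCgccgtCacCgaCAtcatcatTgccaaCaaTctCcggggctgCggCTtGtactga
Gnao1 exon 8B, coding: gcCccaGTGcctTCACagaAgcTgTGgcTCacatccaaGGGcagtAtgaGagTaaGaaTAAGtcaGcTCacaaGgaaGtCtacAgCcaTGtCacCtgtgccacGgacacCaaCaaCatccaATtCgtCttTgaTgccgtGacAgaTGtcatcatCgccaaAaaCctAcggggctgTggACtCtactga
Exons 7A and 7B differed at 29 of 154 bases, and the coding parts of exons 8A and 8B at 59 of 188 bases. Over the whole coding sequence of 1065 bases, 88 bases and 68 of 355 codons differed. In 42 of those 68 codons the third base alone differed.

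The last 30 coding bases of the alpha subunits are shown because the end of the alpha subunit meets the receptor and, in Go and Gi proteins, carries the cysteine that pertussis toxin modifies. Capitals mark the 4th codon from the end, before the stop codon.
Gnao1 A, chr8:93967026-93967055, plus strand: aacaatctccggggcTGCggcttgtactga
Gnao1 B, chr8:93956223-93956252, plus strand: aaaaacctacggggcTGTggactctactga
Gnai1, chr5:18267019-18267048, minus strand: aataacctaaaagacTGTggtctcttctaa
Gnai2, chr9:107615635-107615664, minus strand: aacaacctgaaggacTGTggcctcttctga
Gnaz, chr10:75015183-75015212, plus strand: aacaatctcaagtacATCggcctttgctga
Gnaq, chr19:16383365-16383394, plus strand: ctgaacctgaaggagTACaatctggtctaa
The codon in capitals was TGC or TGT, both cysteine codons, in Gnao1 A, Gnao1 B, Gnai1 and Gnai2. It was ATC in Gnaz and TAC in Gnaq, which encode proteins known to be insensitive to the toxin.

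The 10 genes together held 2946 CPM in replicate 2 and 2991 CPM in replicate 1, with a mean of 2969 ± 31.5 CPM (SD, n = 2). The beta subunits summed to 1332 CPM in replicate 2 and 1289 CPM in replicate 1, and the alpha subunits to 1196 CPM in replicate 2 and 1215 CPM in replicate 1. The gamma subunits summed to 419 CPM in replicate 2 and 486 CPM in replicate 1. Gnb1 was the most abundant of the 10 and Gnaq the least.

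**Figure D1:**
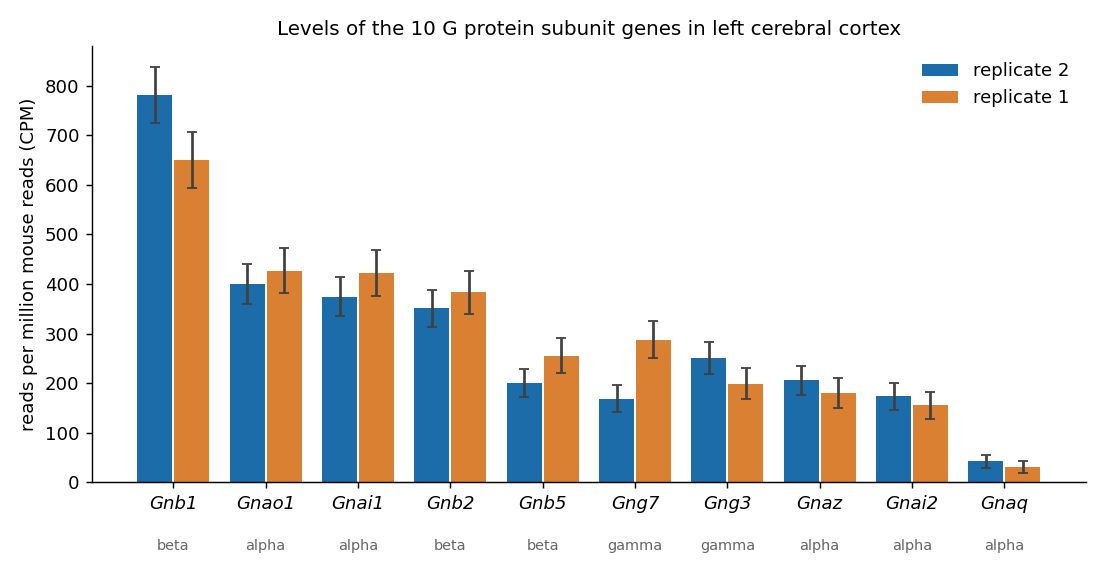
Level of each of the 10 genes in CPM, with replicate 2 in blue left of replicate 1 in orange; bars are single libraries and error bars are 95% Poisson counting intervals (normal approximation). Gnb1 stands above the rest in both libraries, Gnaq is at 42.2 CPM in replicate 2 and 31.0 CPM in replicate 1, and Gng7 is the gene whose counting intervals lie farthest apart.

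Gnao1 (ENSMUSG00000031748.16) encodes the alpha subunit of Go, the main G protein of neuronal membranes. It lies on the plus strand of chromosome 8 at 93809966 to 93969388 in mm10. It had 370 reads (400 CPM) in replicate 2 and 331 reads (427 CPM) in replicate 1, with a mean of 414 ± 18.9 CPM (SD, n = 2). Gnai1 (ENSMUSG00000057614.6), an inhibitory alpha subunit of the Gi class on the minus strand of chromosome 5 at 18265135 to 18360355, was close behind. Gnai1 had 346 reads (374 CPM) in replicate 2 and 327 reads (422 CPM) in replicate 1, with a mean of 398 ± 33.6 CPM (SD, n = 2). The library values of Gnao1 and Gnai1 overlapped, so their order was not separated. Gnaz (ENSMUSG00000040009.6) encodes Gz, an inhibitory alpha subunit with slow GTP hydrolysis, on the plus strand of chromosome 10 at 74967177 to 75016907. Gnaz had 190 reads (206 CPM) in replicate 2 and 140 reads (181 CPM) in replicate 1, with a mean of 193 ± 17.6 CPM (SD, n = 2). Gnai2 (ENSMUSG00000032562.13), the Gi subunit found in most tissues, lies on the minus strand of chromosome 9 at 107614125 to 107635367. Gnai2 had 160 reads (173 CPM) in replicate 2 and 120 reads (155 CPM) in replicate 1, with a mean of 164 ± 12.9 CPM (SD, n = 2). Both library values of Gnaz were above both of Gnai2.

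Gnaq (ENSMUSG00000024639.5) encodes Gq, which activates phospholipase C beta, and spans 254633 bases on the plus strand of chromosome 19 at 16132831 to 16387463. Gnaq had 39 reads (42.2 CPM) in replicate 2 and 24 reads (31.0 CPM) in replicate 1, with a mean of 36.6 ± 7.94 CPM (SD, n = 2). Both values were below those of every other member. Its annotated message Gnaq-201 is also the longest among the leading messages of the 10 genes, at 5644 bases with 4069 bases after the stop codon. The leading messages of the other 9 genes were 1643 to 3519 bases long. Whether message length bears on the number of Gnaq reads was not tested.

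Among the beta subunits, which fold as a propeller and dimerise with gamma, Gnb1 (ENSMUSG00000029064.15) lies on the plus strand of chromosome 4 at 155491361 to 155559269. Gnb1 had 722 reads (781 CPM) in replicate 2 and 504 reads (650 CPM) in replicate 1, with a mean of 716 ± 92.6 CPM (SD, n = 2). Its lower value was above both values of Gnao1, the next gene in the order. Gnb2 (ENSMUSG00000029713.15), a close relative on the minus strand of chromosome 5 at 137528127 to 137533510, had 324 reads (351 CPM) in replicate 2 and 297 reads (383 CPM) in replicate 1, with a mean of 367 ± 23.1 CPM (SD, n = 2). The values of Gnb2 overlapped those of Gnai1 just above it. Gnb5 (ENSMUSG00000032192.9), the divergent beta subunit that pairs with RGS proteins of the Rgs7 and Rgs9 kind in neurons, lies on the plus strand of chromosome 9 at 75306288 to 75345876. Gnb5 had 185 reads (200 CPM) in replicate 2 and 198 reads (255 CPM) in replicate 1, with a mean of 228 ± 39.1 CPM (SD, n = 2). Both values of Gnb5 were below both of Gnb2.

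Gamma subunits carry a lipid that holds the beta-gamma dimer at the membrane, attached to a cysteine close to the end of the protein. The last 30 coding bases of both gamma members are shown with that codon, again the 4th from the end, in capitals.
Gng3, chr19:8838143-8838172, minus strand: gagaagaagttcttcTGTgcgctcctctga
Gng7, chr10:80951621-80951650, minus strand: aaagacaaaaagcctTGCataattctctag
Gng3 (ENSMUSG00000071658.5), a neuronal gamma subunit, lies on the minus strand of chromosome 19 at 8836933 to 8839194 and encodes 75 amino acids. Gng3 had 231 reads (250 CPM) in replicate 2 and 154 reads (199 CPM) in replicate 1, with a mean of 224 ± 36.2 CPM (SD, n = 2). Gng7 (ENSMUSG00000048240.14) lies on the minus strand of chromosome 10 at 80948624 to 81014945, encodes 69 amino acids and is known for its abundance in striatum. Gng7 had 156 reads (169 CPM) in replicate 2 and 223 reads (288 CPM) in replicate 1, with a mean of 228 ± 84.1 CPM (SD, n = 2), the widest relative spread of the 10. The library values of Gnb5, Gng7, Gng3 and Gnaz overlapped from each gene to the next, so no order was separated among these 4.

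Of the 10 genes, 0 were called higher and 1 was called lower in replicate 2, beside 2.11% of all tested genes called in either direction, 1.10% called higher and 1.01% called lower. Gng7 was the gene called, with a log2 ratio of -0.77 (95% counting interval -1.06 to -0.47) and an adjusted p of 6.38e-05 by Fisher's exact test. The other 9 did not pass, with log2 ratios between -0.35 for Gnb5 and 0.44 for Gnaq. The median log2 ratio was 0.03 over the 10 and -0.01 over all tested genes, with 5 of the 10 above 0 and 5 below.

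**Figure D2:**
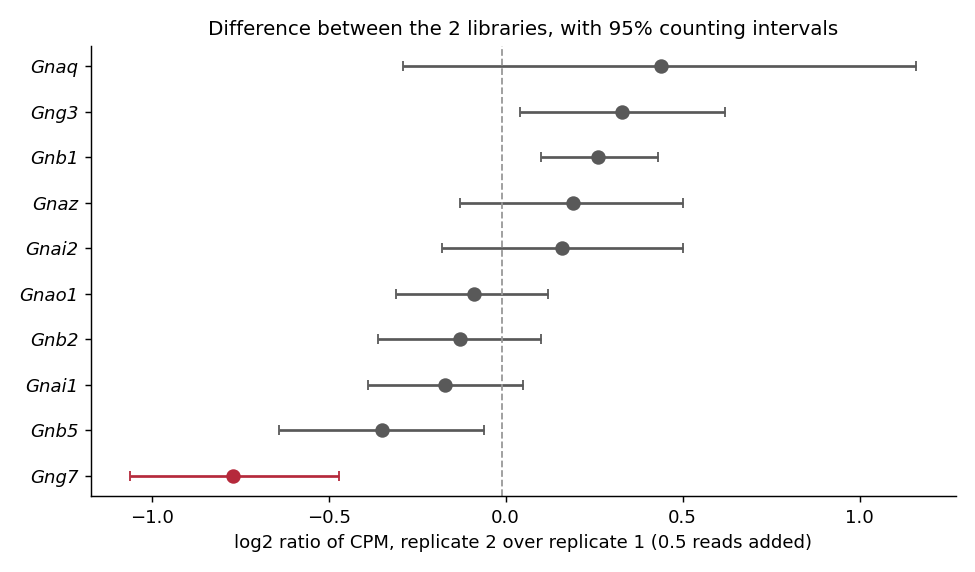
Log2 ratio of CPM, replicate 2 over replicate 1, for each of the 10 genes with its 95% counting interval; the dashed line is the median of all tested genes (-0.01) and red marks the gene past the adjusted threshold. Gng7 is at -0.77 and the other 9 lie between -0.35 and 0.44.

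Gnb1 came nearest to the threshold among the other 9, with a log2 ratio of 0.26 (0.10 to 0.43) and an adjusted p of 0.0662. Its adjusted p fell to 0.0266 under median-of-ratios scaling, to 0.0407 with a minimum of 50 reads per gene and to 0.0396 without genomic models. Gnb5 had a log2 ratio of -0.35 (-0.64 to -0.06) and an adjusted p of 0.272, and Gng3 one of 0.33 (0.04 to 0.62) and an adjusted p of 0.345. For Gnao1 the log2 ratio was -0.09 (-0.31 to 0.12) and for Gnai1 -0.17 (-0.39 to 0.05). With 39 reads in replicate 2 and 24 in replicate 1, Gnaq had the widest interval of the 10, from -0.29 to 1.16. Scaled to the ERCC reads, every log2 ratio moved by -0.28, and Gnai2, Gnaz and Gnb1 changed sign.

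Gng7 moved in the same direction as the striatal markers. All 7 tested genes of that list had log2 ratios below 0 and 6 were called lower, beside 1.01% of all tested genes. The 7 had a median of -2.37 where a gene with 0 reads is set at its bound. Drd2 and Adora2a had 0 reads in replicate 2. Ppp1r1b, a phosphatase inhibitor enriched in striatal neurons, had 146 reads in replicate 2 and 407 reads in replicate 1, and Penk, the enkephalin precursor, had 36 reads in replicate 2 and 166 reads in replicate 1. In striatal neurons the product of Gng7 is known to work with Gnal, a stimulatory alpha subunit, and with the adenylyl cyclase Adcy5. Adcy5 had 47 reads (50.9 CPM) in replicate 2 and 80 reads (103 CPM) in replicate 1 and was called lower in replicate 2, with a log2 ratio of -1.02 and an adjusted p of 0.0109 by Fisher's exact test. Gnal had 51 reads (55.2 CPM) in replicate 2 and 54 reads (69.7 CPM) in replicate 1 and did not pass, with a log2 ratio of -0.34 and an adjusted p of 0.780. The part of striatal tissue in the Gng7 difference was not tested.

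Reads of Gng7 began at alternative first exons, and the 250 bases before each are shown because the share of reads from each start is described next. The sequences are RefSeq's for GRCm38.p6, on the minus strand, 5′ to 3′ up to the base before the start. Capitals mark the letters GGGCGG, and likewise the letters CCAAT, and likewise the letters TATAAA, on either strand.
Before Gng7-201, chr10:81014926-81015175: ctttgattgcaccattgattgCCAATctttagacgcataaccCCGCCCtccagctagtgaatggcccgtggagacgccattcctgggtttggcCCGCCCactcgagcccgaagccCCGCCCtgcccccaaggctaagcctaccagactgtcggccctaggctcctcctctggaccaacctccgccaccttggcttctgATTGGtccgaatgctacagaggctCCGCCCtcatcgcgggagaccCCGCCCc
Before Gng7-202, chr10:81001366-81001615: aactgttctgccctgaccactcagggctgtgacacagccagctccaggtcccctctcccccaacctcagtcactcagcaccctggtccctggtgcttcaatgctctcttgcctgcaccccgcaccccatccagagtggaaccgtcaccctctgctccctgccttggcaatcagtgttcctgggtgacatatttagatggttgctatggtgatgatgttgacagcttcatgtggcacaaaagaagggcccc
The window before Gng7-201 held 5 matches to GGGCGG and 2 to CCAAT, and that before Gng7-202 held 0 of each. Neither held TATAAA. Of 32851 windows of the same length in the RefSeq table, 32.7% held GGGCGG, 33.8% CCAAT and 12.4% TATAAA. The share of G and C was 62.8% before Gng7-201 and 57.2% before Gng7-202, with a median of 52.4% over all windows. Of the 10 genes, 8 had a window in that table.

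The first exon of Gng7-202 lies at chr10:81001233-81001365, within the first intron of Gng7-201, whose first exon lies at chr10:81014856-81014925. Both are noncoding and lead to the same coding sequence of 210 bases. The Gng7-201 start was used by 81 reads (87.6 CPM) in replicate 2 and 119 reads (154 CPM) in replicate 1. The Gng7-202 start was used by 19 reads (20.6 CPM) in replicate 2 and 9 reads (11.6 CPM) in replicate 1. Reads from the Gng7-201 start were at a lower level in replicate 2, with a log2 ratio of -0.81 (-1.21 to -0.40). The log2 ratio of the Gng7-202 start was 0.78 (-0.34 to 1.90). As a share, Gng7-202 took 19.0% of these reads in replicate 2 (95% Wilson interval 12.5 to 27.8%) and 7.03% in replicate 1 (3.74 to 12.8%). Fisher's exact test gave an unadjusted p of 0.00792 for this choice, which was picked after its values had been seen, and the intervals overlapped. A further message, Gng7-205, begins in an exon 2 extended upstream and had 9 of 109 isoform reads in replicate 2 and 18 of 147 in replicate 1. Single-exon models inside the last exon of 3123 bases held 36 of 156 Gng7 reads in replicate 2 and 58 of 223 in replicate 1. The counts of Gng7-205 and of these models were also lower in replicate 2. The single-exon models hold no first exon and cannot be assigned to a start. Whether the difference went beyond the Gng7-201 start was not tested.

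Spliced Gnao1 reads came almost all from the A message. A exons were carried by 293 reads and B exons by 8 reads in replicate 2, against 266 A reads and 1 B read in replicate 1. The A share was 97.3% in replicate 2 (Wilson interval 94.8 to 98.6%) and 99.6% in replicate 1 (97.9 to 99.9%), with a mean of 98.5% ± 1.61 (SD, n = 2). Fisher's exact test gave an unadjusted p of 0.0406 for the difference. Of the 8 B reads in replicate 2, 4 lay inside exon 8B and used neither B junction. Counted at the junction out of exon 6 alone, 278 reads went to 7A and 4 to 7B in replicate 2, against 254 to 7A and 1 to 7B in replicate 1, and the call was lost, with an exact p of 0.376.

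**Figure D3:**
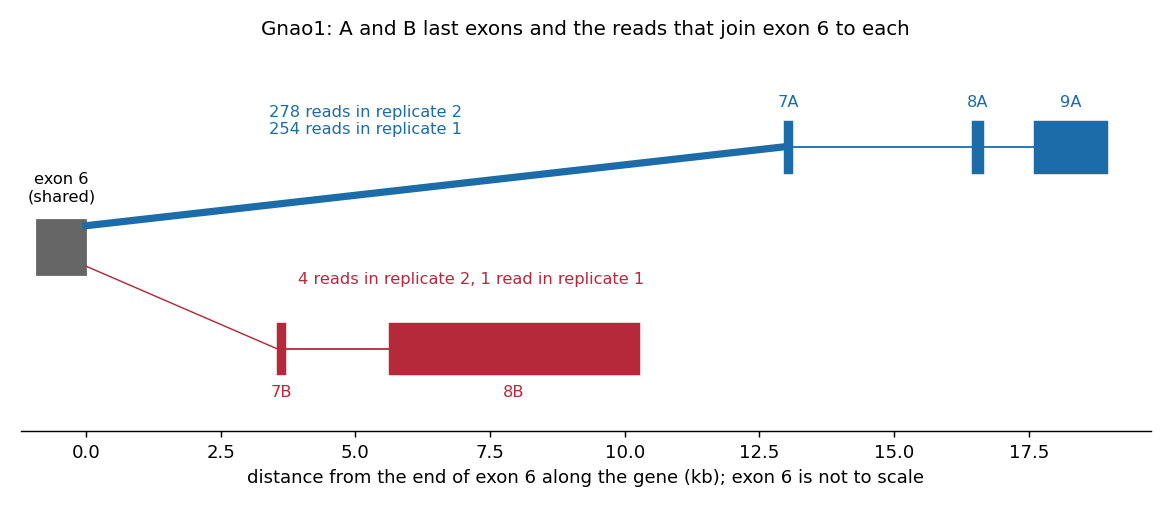
Map of the 3′ end of Gnao1, with distance from the end of exon 6 on the x axis in kb, A exons in blue above and B exons in red below; line widths are illustrative and the numbers count reads that join exon 6 to each version. The A junction has 278 reads in replicate 2 and 254 in replicate 1, and the B junction 4 reads in replicate 2 and 1 read in replicate 1.

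The B message Gnao1-207 is 5526 bases long with a last exon of 4626 bases, whereas the A messages Gnao1-203 and Gnao1-201 are 3462 and 2948 bases long. Whether this difference in length bears on the A share was not tested. Gnao1-203 held 42.5% of 306 isoform reads in replicate 2 and 43.5% of 278 in replicate 1, and Gnao1-201 held 34.6% in replicate 2 and 33.1% in replicate 1. These 2 A messages have the same coding sequence, though their annotated ends are not the same. They also differ by an intron of 948 bases past the stop codon, at chr8:93967084-93968031. Among A reads that reached across this stretch, the intron was removed in 136 of 292 reads in replicate 2 (46.6%) and in 115 of 261 in replicate 1 (44.1%). The intervals overlapped, at 40.9 to 52.3% in replicate 2 and 38.2 to 50.1% in replicate 1. A further 55 reads in each library matched Gnao1-212, a single-exon message of 3415 bases annotated as a retained intron, which made up 18.0% of isoform reads in replicate 2 and 19.8% in replicate 1. Such a read spans neither set of splice junctions and was left out of the A share. None of the 67 single-exon Gnao1 reads in replicate 2 or the 64 in replicate 1 lay inside the last exon of Gnao1-203. They were not assigned to A or B, so the A share describes spliced reads alone.

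Coding exons of these genes were almost never skipped. Of 56 internal exons with at least 20 informative reads in each library, 47 were never skipped. Among the 49 annotated exons that hold coding sequence, 3 were skipped by any read, and the lowest inclusion in a library was 98.2%. No exon of Gnai1, Gnai2, Gnb5, Gng3 or Gng7 was skipped, and none of Gnaq had enough reads. The 6 exons included in fewer than 90% of reads in a library were noncoding exons of Gnaz and Gnb1, and 4 of these 6 were unannotated exons seen in at most 2 reads.

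Gnaz had the largest share of reads in an unannotated chain. The annotated Gnaz-201 carries a noncoding exon 2 of 66 bases at chr10:74978791-74978856, upstream of the 2 coding exons. A chain that joins exon 1 directly to exon 3 held 57 of 172 isoform reads in replicate 2 (33.1%, Wilson interval 26.5 to 40.5%) and 48 of 134 in replicate 1 (35.8%, 28.2 to 44.2%). Gnaz-201 itself held 57.0% in replicate 2 and 53.7% in replicate 1. Gnaz-202, with 2 exons, held 8.14% in replicate 2 and 7.46% in replicate 1. Exon 2 was included in 99 of 156 informative reads in replicate 2 (63.5%) and in 72 of 120 in replicate 1 (60.0%), with a mean of 61.7% ± 2.45 (SD, n = 2). The skipped form thus appeared in both libraries at shares whose intervals overlapped, and its coding sequence of 1068 bases was that of Gnaz-201.

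**Figure D4:**
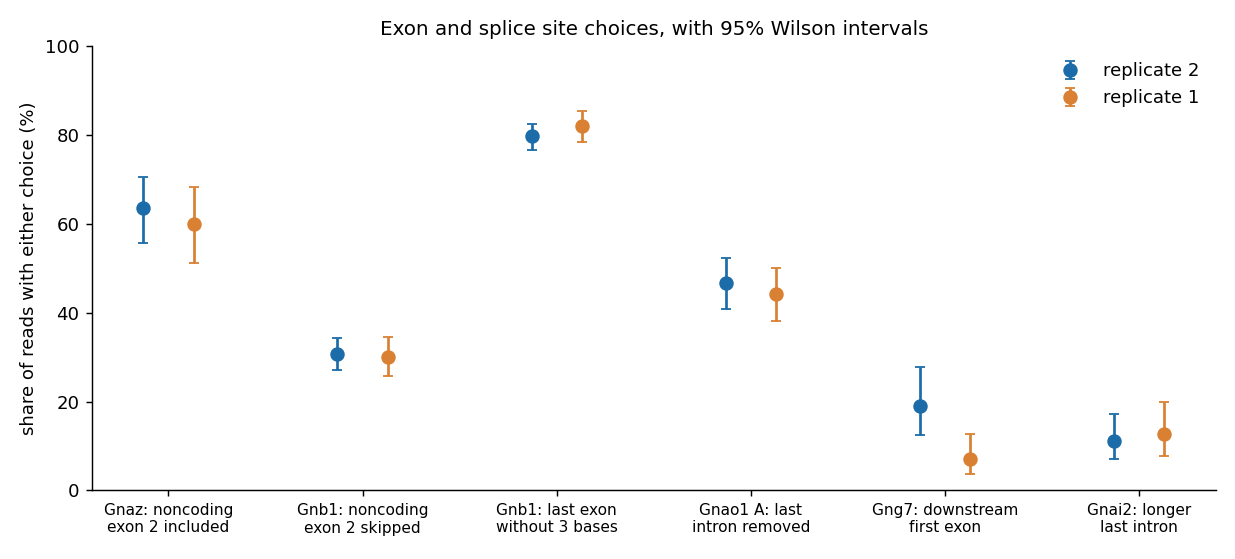
Share of reads with the named choice, in percent of reads that show either choice, for 6 exon and splice site choices in 5 of the genes; points are single libraries, replicate 2 in blue left of replicate 1 in orange, with 95% Wilson intervals. The intervals of both libraries overlap in all 6 choices and lie farthest apart for the first exon of Gng7-202, at 19.0% in replicate 2 and 7.03% in replicate 1.

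Gnb1 had a pair of such choices, at either end of the message. Its noncoding exon 2, 49 bases at chr4:155515631-155515679, was included in 429 of 618 reads in replicate 2 (69.4%) and 299 of 427 in replicate 1 (70.0%). Its last exon, which lies past the stop codon, began at either of 2 splice sites 3 bases apart. The first 30 bases of the longer form are shown, with the optional bases in capitals.
Gnb1 last exon, chr4:155557468-155557497, plus strand: CAGcaggtggatggatgccatggcgactgg
The shorter form without the capitals was used by 541 of 679 reads in replicate 2 (79.7%) and 389 of 474 in replicate 1 (82.1%). Because a read spans both ends, the choices could be read on the same molecule. The longer form was used in 43 of 186 reads that skipped exon 2 and in 84 of 421 that included it in replicate 2, which is 23.1% (17.6 to 29.7%) and 20.0% (16.4 to 24.0%). In replicate 1 it was used in 22 of 126 reads that skipped exon 2 and in 53 of 291 that included it, which is 17.5% (11.8 to 25.0%) and 18.2% (14.2 to 23.1%). The intervals overlapped in each library. The 4 combinations were Gnb1-201 (51.2% of isoform reads in replicate 2, 52.3% in replicate 1), Gnb1-202 (22.0% in replicate 2, 23.0% in replicate 1), Gnb1-203 (12.5% in replicate 2, 11.9% in replicate 1) and an unannotated chain with exon 2 skipped and the longer last exon (6.50% in replicate 2, 4.47% in replicate 1). Gnb1-206, annotated as a retained intron, held 3.10% in replicate 2 and 5.82% in replicate 1.

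The other genes leaned on 1 message. Gnai1-201 held 98.2% of Gnai1 isoform reads in replicate 2 and 96.8% in replicate 1. Gng3-201 held 97.8% of Gng3 isoform reads in replicate 2 and 100% in replicate 1. Gnb5-206, which starts at the nearer of the annotated starts and encodes 353 amino acids, held 95.9% in replicate 2 and 97.4% in replicate 1. The junctions of Gnb5-202, whose longer product of 395 amino acids is known from photoreceptors, were used by 0 of 170 reads in replicate 2, which allows a share of up to 1.76% by a floor of 3 counts (Wilson upper limit 2.21%). In replicate 1 they were used by 0 of 188 reads, which allows up to 1.60% by the same floor (Wilson upper limit 2.00%). Gnb2-201 held 89.2% of Gnb2 isoform reads in replicate 2 and 89.1% in replicate 1, and an unannotated chain with another first exon had 6 reads in each library. Gnai2-201 held 81.7% in replicate 2 and 85.0% in replicate 1, and Gnai2-202, whose last exon starts 383 bases farther on within the untranslated end, held 7.04% in replicate 2 and 8.85% in replicate 1. Gnai2-206, annotated as a retained intron, held 9.15% in replicate 2 and 5.31% in replicate 1.

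The share of the leading message did not differ between the libraries past the threshold in any of the 9 genes that could be tested, beside 0.162% of 4944 genes called. That is 8 genes called by Fisher's exact test with Benjamini-Hochberg adjustment, and 188 at an unadjusted p under 0.05, which included none of the 9. The largest difference among the 9 was that of Gng7-201, at 74.3% in replicate 2 and 80.3% in replicate 1, with an unadjusted exact p of 0.289. Gnaq had 8 isoform reads in replicate 2 and 4 in replicate 1 and was not tested.

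The deposited class of each read shows how much of a gene was read along its full splicing chain. Known models match an annotated transcript, ISM models (incomplete splice match) hold part of its chain, NIC and NNC models hold an unannotated combination or splice site, and genomic models overlap the gene without matching its splicing. Over all annotated genes, Known models held 71.5% of reads in replicate 2 and 72.4% in replicate 1. For Gnai1 the Known share was 94.2% in replicate 2 and 91.7% in replicate 1, and for Gng3 it was 96.1% in replicate 2 and 92.9% in replicate 1. Gnaz was below the share of all genes, at 58.9% in replicate 2 and 58.6% in replicate 1, with its exon-skipping chain in the NIC class. Gnaq stood lowest, at 8 of 39 reads in replicate 2 (20.5%) and 4 of 24 in replicate 1 (16.7%). Its other reads were genomic, and 29 of 31 in replicate 2 and 19 of 20 in replicate 1 lay as single-exon models inside the last exon of 4260 bases, past the coding part. With Known models alone, and all Known mouse reads as the total, the summed level of the 10 genes was 3736 per 1000000, against 2969 CPM with all classes in both.

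**Figure D5:**
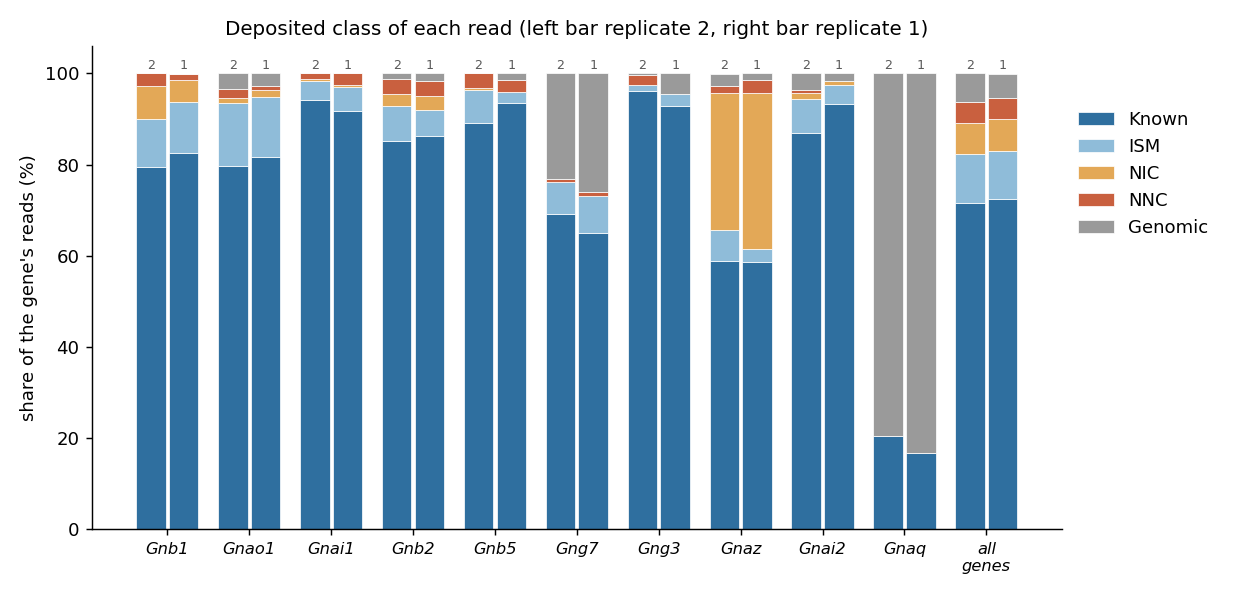
Share of each gene's reads in the 5 deposited classes, in percent, for the 10 genes and for all annotated genes; the left bar of each pair is replicate 2 and the right bar replicate 1. Genomic models in grey hold 79.5% of Gnaq reads in replicate 2 and 83.3% in replicate 1, and NIC models in yellow hold 30.0% of Gnaz reads in replicate 2 and 34.3% in replicate 1.

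Models on the opposite strand lay over the last exons of Gnb1 and Gnaq. A single-exon antisense model inside the last exon of Gnb1 had 453 reads in replicate 2 and spanned 494 bases at chr4:155557653-155558146. In replicate 1 the leading such model had 350 reads and spanned 1122 bases at chr4:155558146-155559267. All opposite-strand reads over Gnb1 exons came to 453 in replicate 2 and 353 in replicate 1, which is 62.7% of the number of Gnb1 reads in replicate 2 and 70.0% in replicate 1. Over Gnaq exons they came to 32 reads in replicate 2 and 19 in replicate 1. Over the other 8 genes they came to at most 17 reads in a library. Whether the libraries keep the strand of a single-exon read is not given in the sources used here, so reads of Gnb1 and of a transcript opposite to it cannot be told apart there, and these models were not counted in the levels.

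The coding exons showed which members share a build. In Gnao1, Gnai1 and Gnai2 coding exons 1, 2, 3, 5, 6 and 7 had the same lengths of 118, 43, 142, 129, 130 and 154 bases. Gnaq had the run of 129, 130 and 154 bases in its coding exons 4, 5 and 6, whereas Gnaz had 2 coding exons of 723 and 345 bases. All 9 coding exons of Gnb1 and Gnb2 had equal lengths, and the coding sequences of 1023 bases were the same at 788 bases (77.0%). The 11 coding exons of Gnb5-206 shared no such pattern. No same-strand model of another annotated gene overlapped an exon of the 10 genes.

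Of 23 other subunit genes, 15 had enough reads to be tested (7 alpha, 1 beta and 7 gamma). None of these 15 was called in either direction by Fisher's exact test with adjustment, beside 2.11% of all tested genes. Gnas, the stimulatory alpha subunit of Gs, had 1457 reads (1576 CPM) in replicate 2 and 1178 reads (1520 CPM) in replicate 1, more than any of the 10. Gna11 and Gna12 followed among the other alpha genes, at 226 ± 10.6 and 135 ± 0.925 CPM (SD, n = 2). Gnb4 was at 122 ± 13.5 CPM, and Gng4, Gng12 and Gng10 at 145 ± 4.46, 89.9 ± 17.0 and 74.0 ± 6.69 CPM. The members held 92.2% of the reads of all 5 beta genes in replicate 2 and 90.7% in replicate 1. Of the 12 gamma genes they held 49.4% in replicate 2 and 54.2% in replicate 1, and of the 16 alpha genes 36.8% in replicate 2 and 37.6% in replicate 1.

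Genes that work upstream and downstream of these subunits were read from lists chosen for the pathway, with earlier results of these data known. Among 25 tested receptor genes, 0 were called higher and 3 lower in replicate 2, where 1.10% of all tested genes were called higher and 1.01% lower. Gabbr1 and Gabbr2, the subunits of the GABA-B receptor, were the most abundant at 174 ± 11.6 and 169 ± 15.7 CPM, followed by the adenosine receptor Adora1 at 95.1 ± 5.98 CPM (SD, n = 2). The 3 called lower were dopamine and serotonin receptors. Drd1 had 5 reads in replicate 2 and 41 reads in replicate 1. Drd2 was not seen in replicate 2 and had 13 reads in replicate 1, and Htr1b was not seen in replicate 2 and had 10 reads in replicate 1. With replicate 2 set at a floor of 3 reads as the bound, its level was 5.17-fold lower for Drd2 and 3.97-fold lower for Htr1b. These folds leave out the counting error of replicate 1. The 95% counting intervals of the log2 ratios reached up to -0.94 for Drd2 and -0.55 for Htr1b. Drd1 and Drd2 also stand in the striatal list.

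RGS proteins speed GTP hydrolysis by alpha subunits, and their list also held the gene of a binding protein, Rgs7bp. Among its 14 tested genes, 0 were called higher and 1, Rgs9, lower in replicate 2, beside 1.10% and 1.01% of all tested genes. Rgs9, a partner of Gnb5 and also a striatal marker, had 16 reads in replicate 2 and 75 reads in replicate 1, with a log2 ratio of -2.45 and an adjusted p of 3.05e-10 by Fisher's exact test. Rgs4, Rgs12 and Rgs7bp were the most abundant of that list. Rgs4 was at 309 CPM in replicate 2 and 234 CPM in replicate 1, Rgs12 at 60.6 CPM in replicate 2 and 90.3 CPM in replicate 1, and Rgs7bp at 69.2 CPM in replicate 2 and 73.5 CPM in replicate 1. Of 17 tested effector genes, 1 was called higher and 1, Adcy5, lower, beside 1.10% and 1.01% of all tested genes. The gene called higher was Kcnj9, a subunit of the potassium channels that beta-gamma opens, with 159 reads in replicate 2 and 70 reads in replicate 1, a log2 ratio of 0.92 and an adjusted p of 6.67e-04 by Fisher's exact test. The adenylyl cyclases Adcy2 and Adcy1 were at 140 ± 5.78 and 109 ± 28.9 CPM, beside Kcnj9 at 131 ± 57.8 CPM (SD, n = 2). Of 12 tested genes for chaperones and modulators of G proteins, 0 were called, beside 2.11% of all tested genes. The GTPase-activating protein Rap1gap was at 329 ± 15.0 CPM and the alpha chaperone Ric8a at 139 ± 4.72 CPM (SD, n = 2). The receptor kinase Grk6 was at 131 ± 6.28 CPM (SD, n = 2). The median log2 ratios were -0.13 for receptors, with genes at 0 set at their bound, 0.15 for RGS proteins, 0.35 for effectors and -0.01 for chaperones and modulators, against -0.01 for all tested genes.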

How the data were processed

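The authors deposited, for each library, a table of transcript models with whole-number read counts (not normalized) and the exons of each model. Per the files' text the models were built on mm10 with GENCODE M21, and TALON is named in the deposited models. The aligner is not given in the sources used here. Alleles of the cross were not separated. ERCC reads, 10830 in replicate 2 and 7473 in replicate 1, were left out of CPM. Reads were summed by annotated gene, and isoforms were matched by intron chain. With 1 group of 2 libraries there were no conditions to compare and no residual degrees of freedom, so Fisher's exact tests (scipy 1.17.1, Python 3.11.15) compared libraries, with Benjamini-Hochberg adjustment at 0.05, 0.5 reads added before log2 and a floor of 3 counts. Tests were checked on simulated data with counting error as the only spread, so the check does not cover other differences between libraries. Intervals (95%) were computed from read counts alone, so they cover counting error and not the spread between animals. Reads carry no molecular identifiers here, so copies of 1 cDNA may be counted as separate molecules. The members and lists were chosen with earlier results of these data known. All members, the 3 highest genes per list and every listed gene past the test were named, and isoforms at 5% of reads or unannotated chains with 5 reads in each library.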

Additional observations from a re-analysis of the deposited data

How the results depend on the processing

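Gng7 was called lower in replicate 2 under all 5 alternatives that gave a test (log2 ratios -0.65 to -0.77), and its log2 ratio was -1.05 when scaled to ERCC reads. Gnb1 passed the threshold in 3 of the 5. Over the 10 members and these 5 alternatives, 47 of 50 calls were as before and 3 were new, all of Gnb1. The log2 ratio of Gnaq, uncalled throughout, was 0.44, 0.69 with Known models alone, 0.68 without genomic models and 0.15 scaled to ERCC reads, a scaling that gave no test. Median-of-ratios scaling shifted all ratios by 0.03. The count of genes that differed between libraries was 236, and 166 to 292 under the alternatives. The A share of Gnao1 was 98.5% (p = 0.0406, Fisher's exact test), 99.6% with Known models alone, 99.2% without ISM models (exact p = 0.626) and 99.1% from the exon 6 junction alone (exact p = 0.376, an alternative chosen after seeing the data). With a single library it ranged from 97.3% to 99.6%. The summed level of the members was 2969 CPM, 3736 with Known models alone and 3042 without ISM models (each per 1000000 mouse reads of the classes kept) and 2946 to 2991 CPM with a single library. The number of member exons skipped by a read was 9, and 2 with Known models alone, where by construction the unannotated Gnaz chain is absent. For the leading isoform 8 genes were called, 71 with ISM models counted as isoforms and 2 with Known models alone, and no member was called under these alternatives. No paired analysis was possible because there is 1 group. Depth limits Gnaq most, at 24 reads in replicate 1.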
